A study of Mus musculus with 43 samples.

Results

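The 8 genes described here rose within days while mouse fibroblasts lacking an Mbd3 allele or Gatad2a were reprogrammed. Most fell again, but Aqp3 did so only in part and Fam25c stayed high. The 8 genes are Krtdap, Lgals7, Aqp3, Cyp4f39, Fetub, Ly6g6c, Plek2 and Fam25c. They are 8 of the 38983 genes present in all 5 deposited tables, and each symbol matched 1 row in every table. They were picked because their values climbed early in the cells lacking an Mbd3 allele or Gatad2a and mostly came down again by the induced pluripotent stem cell (iPSC) stage. Their courses in those cells are therefore given as a description, with no test. Libraries of the wild-type (WT) systems and of the Myc conditions were not part of that choice as stated. The Myc libraries are of Mbd3f/- cells, however, so a rise there is not independent of the choice.

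The data are poly(A) RNA-seq of 43 libraries, 34 from reprogramming courses and 9 from Myc conditions. The 4 systems of secondary mouse embryonic fibroblasts (MEF) carried reprogramming factors Oct4, Klf4, Sox2 and Myc (OKSM) that doxycycline switches on: Mbd3f/- (a floxed and a null Mbd3 allele, 11 libraries), Gatad2a-/- (10), WT-1 (7) and WT-2 (6, isogenic to Gatad2a-/-). The depleted systems were sampled as MEF, daily on days 1 to 8 of doxycycline and as iPSC, while the WT systems were sampled as MEF, on days 2, 4, 6 and 8 and as iPSC. Mbd3f/- and WT-1 each have an embryonic stem (ES) cell library as well. All cells were grown at 5% oxygen, first in serum with LIF and later with inhibitors of MEK and GSK3, for which the labels disagree on the time of addition (the design text gives day 3.5). From day 3 on, the cells grew on human foreskin fibroblasts, so time, medium and feeder layer change together, and the part of each in any course was not tested. The iPSC had at least 3 passages. The Myc libraries are all from Mbd3f/- cells: 3 libraries of day 4, labelled overexpression of OSK (the factors without Myc) with cMyc, of OSK and of cMyc, and 6 libraries of a secondary OSK line treated with small interfering RNA (siRNA) against cMyc, nMyc and lMyc (siMyc, days 3 and 7), with a Myc inhibitor (day 3) or with a control siRNA (si-Scramble, day 7 and 2 of MEF). Each stage of each system is 1 library, so the 2 systems of a class are the only replicates of a stage, and nothing says whether the 2 si-Scramble MEF libraries are separate cultures.

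Values are FPKM (fragments scaled for transcript length and library size), so levels can be set beside each other between genes, though only roughly. The longest transcript has 408 bases in Fam25c, 470 in Krtdap and 2618 in Cyp4f39, and the part of length in such comparisons was not tested. The depth in fragments, estimated in units of 1000000 from the steps between low FPKM values, was 38.9 to 52.7 in Mbd3f/-, 12.6 to 28.6 in Gatad2a-/-, 32.9 to 50.6 in WT-1, 6.6 to 13.5 in WT-2 and 16.7 to 26.7 in the Myc libraries. A listed 0 need not mean that a gene was silent. All 37 mitochondrial genes are listed at 0 throughout, and why was not tested. Mbd3 ranged over 55.8 to 96.5 FPKM in Mbd3f/-, over its course days and the day 4 Myc libraries together. On the days in WT-1 it ranged over 75.3 to 117. Gatad2a ranged over 8.59 to 14.7 on the days in Gatad2a-/- and 9.17 to 11.5 in WT-2. Gene-level values outside a deleted part check nothing, and which exons are deleted was not read from these tables. A bulk library cannot tell fewer cells of a type from less RNA per cell.

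The epidermis renews itself from basal keratinocytes, which express Trp63, Krt5 and Krt14, attach to the basement membrane through integrins and leave it to become suprabasal cells with Krt1 and Krt10. The outermost living cells build a cornified envelope of loricrin, involucrin and filaggrin and a lipid layer of ceramides with very long acyl chains. Of the 8 genes, Krtdap encodes a small secreted protein made by differentiating keratinocytes and Lgals7 encodes galectin-7, a sugar-binding protein of stratified epithelia. Aqp3 is the water and glycerol channel of the basal epidermis, and Cyp4f39 is the fatty acid omega-hydroxylase that supplies acylceramide synthesis. Ly6g6c belongs to the Ly6 and uPAR family of small, often membrane-anchored proteins, and Plek2 encodes pleckstrin 2, a lipid-binding protein of the actin cytoskeleton. Fetub encodes fetuin-B, a protease inhibitor of the cystatin superfamily that is best known from liver and blood, so the epidermal label does not cover it. Fam25c is given here by its symbol and values.

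Krtdap and Lgals7 share chromosome 7, Cyp4f39 and Ly6g6c share chromosome 17, and the other 4 genes lie on a chromosome each. The 250 bases before the transcription start, from RefSeq on GRCm38.p6, are shown for 4 of them because their promoters differ in the core elements found by a search of 300-base windows (250 before to 50 after the start). Krtdap lies at chr7:30787655-30787904 on the plus strand, Fam25c at chr14:34355394-34355643 on the minus strand, Ly6g6c at chr17:35067075-35067324 on the plus strand and Cyp4f39 at chr17:32452473-32452722 on the plus strand. For Ly6g6c the RefSeq start lies inside the gene span of the annotation given below. Capitals mark TATAAA on the strand of the gene, the AP-1 motif TGANTCA and the Kruppel-like motif GGGNGTGG (the last 2 on either strand), each written 5′ to 3′.
Krtdap: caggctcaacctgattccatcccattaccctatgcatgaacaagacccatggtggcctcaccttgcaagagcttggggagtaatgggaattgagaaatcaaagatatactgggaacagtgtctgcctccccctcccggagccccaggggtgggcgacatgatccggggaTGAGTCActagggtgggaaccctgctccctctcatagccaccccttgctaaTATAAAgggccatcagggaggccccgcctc
Fam25c: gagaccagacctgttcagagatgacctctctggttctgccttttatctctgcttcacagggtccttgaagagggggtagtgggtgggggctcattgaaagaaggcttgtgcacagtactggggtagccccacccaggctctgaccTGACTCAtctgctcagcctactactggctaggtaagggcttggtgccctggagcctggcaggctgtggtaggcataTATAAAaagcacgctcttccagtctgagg
Ly6g6c: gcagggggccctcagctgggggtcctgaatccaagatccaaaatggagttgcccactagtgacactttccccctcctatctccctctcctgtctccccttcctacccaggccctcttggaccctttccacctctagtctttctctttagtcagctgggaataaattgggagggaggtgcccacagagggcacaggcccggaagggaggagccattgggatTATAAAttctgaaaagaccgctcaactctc
Cyp4f39: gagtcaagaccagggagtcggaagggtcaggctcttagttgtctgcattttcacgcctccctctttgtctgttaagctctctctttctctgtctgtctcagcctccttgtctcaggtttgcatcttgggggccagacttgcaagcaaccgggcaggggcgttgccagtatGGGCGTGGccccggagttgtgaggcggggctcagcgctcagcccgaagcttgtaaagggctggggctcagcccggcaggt

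TATAAA was found for 5 of the 8 genes (Aqp3, Fam25c, Fetub, Krtdap and Ly6g6c), against 8.32% of the 32851 RefSeq promoter windows searched. In the printed windows it starts 30 bases before the transcription start in Krtdap and Ly6g6c and 29 in Fam25c. This motif was added after the sequences had been seen. The AP-1 motif was found for Fam25c and Krtdap (7.81% of all windows), 105 and 81 bases before the start. The Kruppel-like motif was found in windows of Cyp4f39, Fetub and Plek2 (17.6% of all windows), 80 bases before the start in Cyp4f39. The motifs AACCGGTT (grainyhead-like, 0.146% of all windows), GCCNNNGGC (AP-2, 16.6%), CACGTG (Myc and Max, 7.15%) and ATGCAAAT (Oct factors, 1.74%) were found in 0 of the 9 windows of the 8 genes; Fetub has 2 windows. A match or its lack is a description of these letters alone.

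The 8 genes together stood at 3.87 summed FPKM in Mbd3f/- MEF, and at 193, 474, 638, 973, 1050, 1070, 571 and 442 on days 1 to 8. In Gatad2a-/- the sum was 5.98 in MEF and 95.8, 187, 426, 725, 1290, 1020, 636 and 228 on days 1 to 8. In both depleted systems the sum was highest in the middle of the course, on day 6 in Mbd3f/- and on day 5 in Gatad2a-/-. WT-1 had 2.42 in MEF and 2.4, 6.99, 12.8 and 45.1 on days 2, 4, 6 and 8, and WT-2 had 0.281 in MEF and 0.495, 1.31, 0.932 and 2.44 on those days. On each shared day the depleted systems lay above both WT systems. In iPSC the sum was 454 in Mbd3f/-, 468 in Gatad2a-/-, 95.1 in WT-1 and 169 in WT-2, and Fam25c was the highest of the 8 genes in all 4 iPSC libraries.

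**Figure D1:**
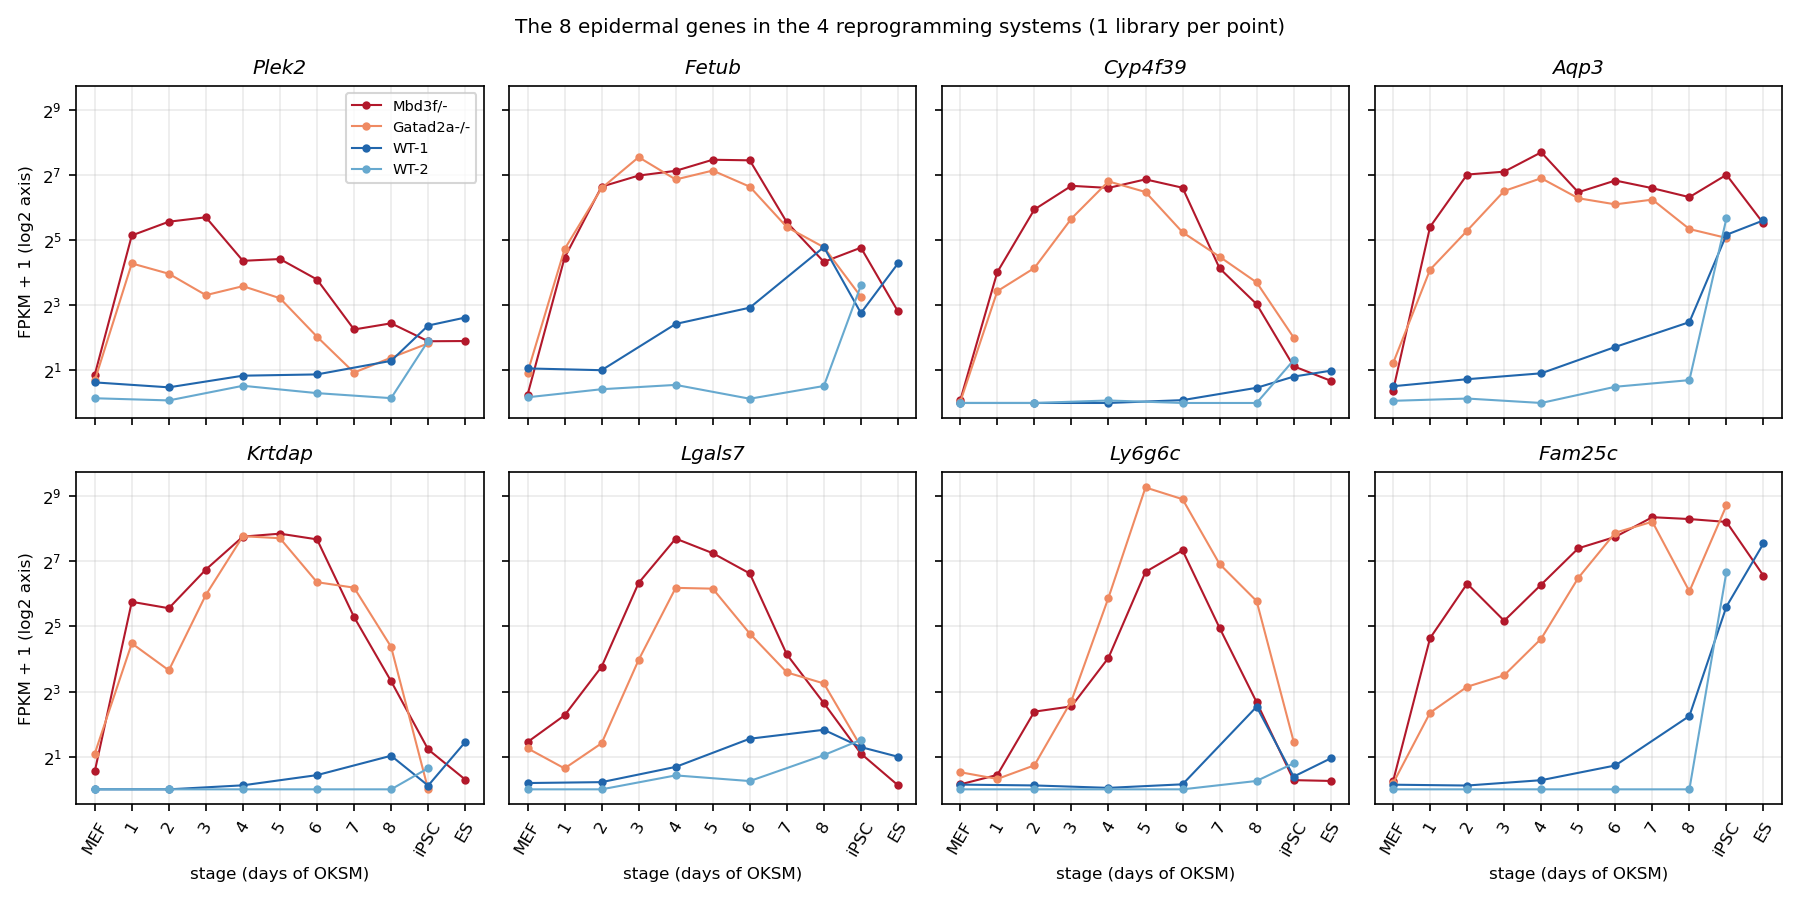
FPKM + 1 (log2 axis) of each of the 8 genes against stage (MEF, days 1 to 8, iPSC, ES) in the 4 systems, 1 library per point. The depleted systems peak between days 1 and 7 at 18.5 to 613 FPKM, while the WT systems stay at or under 26.5 FPKM on every sampled day.

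Krtdap (chr7:30787896-30791097, plus strand, GRCm38) was high from day 4 to day 6 in Mbd3f/- and on days 4 and 5 in Gatad2a-/-. Mbd3f/- MEF had 0.466 FPKM. Its days 1 to 8 had 53, 46.1, 106, 215, 229, 203, 38 and 8.97 FPKM, its iPSC 1.34 and its ES cells 0.232. Gatad2a-/- MEF had 1.14 FPKM, days 1 to 8 had 21.3, 11.6, 61.6, 217, 208, 80.9, 71.9 and 19.7, and iPSC had a listed 0. The highest days, 5 and 4, were almost equally high in the 2 systems (229 and 217 FPKM), 491 and 191 times the MEF level. WT-1 held 0 FPKM (MEF), 0, 0.0892, 0.353 and 1.04 (days 2, 4, 6 and 8), 0.0825 (iPSC) and 1.73 (ES cells), and WT-2 was listed at 0 in MEF and on all 4 days, with 0.568 in iPSC. A level worth 3 fragments, below which Krtdap cannot be read, was 0.766 to 1.57 FPKM in WT-2 and 0.204 to 0.314 in WT-1. The lowest day of the depleted systems, 8.97 FPKM, lay above every WT library.

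Lgals7 (chr7:28863853-28866284, plus strand) came up later. The MEF of Mbd3f/- stood at 1.73 FPKM, days 1 to 8 of that system at 3.83, 12.6, 79.7, 206, 151, 97.6, 16.6 and 5.26, the iPSC at 1.14 and the ES cells at 0.0908. The MEF of Gatad2a-/- stood at 1.39, days 1 to 8 at 0.56, 1.66, 14.7, 71.6, 70.4, 26.4, 11 and 8.51 and the iPSC at 1.48. Day 4 was the highest in both systems, and the peak of 206 FPKM in Mbd3f/- stood against 71.6 FPKM in Gatad2a-/-. WT-1 held 0.143 FPKM (MEF), 0.165, 0.612, 1.93 and 2.55 (days 2, 4, 6 and 8), 1.46 (iPSC) and 1 (ES cells), and WT-2 held 0 (MEF), 0, 0.345, 0.192 and 1.07 (days 2, 4, 6 and 8) and 1.87 (iPSC). Both depleted systems lay above both WT systems on every shared day. The gene overlaps Gm10648 on the other strand, and reads of overlapping genes cannot be told apart in a library that does not mark strand.

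Aqp3 (chr4:41092722-41098183, minus strand) peaked on day 4 in both depleted systems and then stayed on. From MEF onward the Mbd3f/- libraries held 0.303 FPKM (MEF), 41.4, 128, 136, 206, 87.4, 112, 95.4 and 78.7 (days 1 to 8), 127 (iPSC) and 44.5 (ES cells). The Gatad2a-/- libraries held 1.33 FPKM (MEF), 16, 38, 89.9, 118, 76.8, 67.3, 74.6 and 39.4 (days 1 to 8) and 32.5 (iPSC). The iPSC level was 61.8% of the highest day in Mbd3f/- and 27.5% in Gatad2a-/-, so Aqp3 was only partly transient. WT-1 held 0.428 FPKM (MEF), 0.658, 0.879, 2.29 and 4.58 (days 2, 4, 6 and 8), 34.8 (iPSC) and 47.6 (ES cells), and WT-2 held 0.0468 (MEF), 0.0989, 0, 0.412 and 0.626 (days 2, 4, 6 and 8) and 49.7 (iPSC). The 4 iPSC libraries and both ES libraries lay within 32.5 to 127 FPKM, with the classes overlapping there but on no shared day.

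Cyp4f39 (chr17:32452723-32493320, plus strand) held a broad plateau in Mbd3f/- and a narrow one in Gatad2a-/-. Mbd3f/- MEF had 0.0614 FPKM. Its days 1 to 8 had 15.2, 60.3, 100, 95.9, 115, 96.3, 16.5 and 7.18 FPKM, its iPSC 1.18 and its ES cells 0.604. Gatad2a-/- MEF had 0.0243 FPKM, days 1 to 8 had 9.78, 16.6, 49.5, 110, 87.8, 36.7, 21.4 and 12, and iPSC had 3.02. It stood at or above 50% of its highest day on 5 days (2 to 6) in Mbd3f/- and on 2 days (4 and 5) in Gatad2a-/-. WT-1 held 0 FPKM (MEF), 0, 0, 0.0624 and 0.381 (days 2, 4, 6 and 8), 0.753 (iPSC) and 0.986 (ES cells), and WT-2 held 0 (MEF), 0, 0.0546, 0 and 0 (days 2, 4, 6 and 8) and 1.49 (iPSC). Every depleted day lay above every WT library.

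Fetub (chr16:22918334-22939778, plus strand) climbed within 2 days of doxycycline. The MEF of Mbd3f/- stood at 0.187 FPKM, days 1 to 8 of that system at 20.9, 98.6, 125, 138, 176, 173, 45.7 and 19.1, the iPSC at 26.2 and the ES cells at 6.01. The MEF of Gatad2a-/- stood at 0.906, days 1 to 8 at 25.4, 95.5, 185, 115, 139, 98.5, 41.2 and 26.5 and the iPSC at 8.58. Its peaks were close in height (176 and 185 FPKM), on day 5 in Mbd3f/- and on day 3 in Gatad2a-/-. WT-1 held 1.09 FPKM (MEF), 1.01, 4.37, 6.59 and 26.5 (days 2, 4, 6 and 8), 5.77 (iPSC) and 18.4 (ES cells), and WT-2 held 0.128 (MEF), 0.34, 0.469, 0.0943 and 0.435 (days 2, 4, 6 and 8) and 11.2 (iPSC). WT-1 on day 8 matched Gatad2a-/- on day 8 and lay above Mbd3f/- (19.1 FPKM), so Fetub was the 1 gene for which the classes overlapped on a shared day.

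Ly6g6c (chr17:35065388-35070050, plus strand) reached the highest value of the 8 genes, and late. From MEF onward the Mbd3f/- libraries held 0.111 FPKM (MEF), 0.36, 4.22, 4.84, 15.4, 101, 160, 30 and 5.38 (days 1 to 8), 0.216 (iPSC) and 0.196 (ES cells). The Gatad2a-/- libraries held 0.439 FPKM (MEF), 0.247, 0.666, 5.56, 57.8, 613, 478, 120 and 53.8 (days 1 to 8) and 1.76 (iPSC). It stood at or above 50% of its highest day on days 5 and 6 in both systems, and Gatad2a-/- lay above Mbd3f/- from day 3 on. WT-1 held 0.106 FPKM (MEF), 0.0865, 0.032, 0.113 and 4.79 (days 2, 4, 6 and 8), 0.311 (iPSC) and 0.933 (ES cells), and WT-2 was listed at 0 up to day 6, with 0.195 on day 8 and 0.741 in iPSC. Its annotation overlaps Mpig6b on the other strand, which stayed at or under 1.31 FPKM on the days of the depleted systems.

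Plek2 (chr12:78888691-78906964, minus strand) was the earliest and the lowest. Mbd3f/- MEF had 0.823 FPKM. Its days 1 to 8 had 34.3, 46.2, 50.9, 19.6, 20.4, 12.8, 3.77 and 4.44 FPKM, its iPSC 2.72 and its ES cells 2.73. Gatad2a-/- MEF had 0.614 FPKM, days 1 to 8 had 18.5, 14.6, 8.91, 11, 8.28, 3.09, 0.908 and 1.62, and iPSC had 2.55. Its highest days were 3 and 1, and on days 7 and 8 it stood at or under 4.44 FPKM in both systems. WT-1 held 0.549 FPKM (MEF), 0.395, 0.787, 0.836 and 1.45 (days 2, 4, 6 and 8), 4.19 (iPSC) and 5.15 (ES cells), and WT-2 held 0.106 (MEF), 0.0559, 0.442, 0.233 and 0.108 (days 2, 4, 6 and 8) and 2.74 (iPSC). All 6 iPSC and ES libraries lay within 2.55 to 5.15 FPKM.

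Fam25c (chr14:34351881-34355433, minus strand) was the latest and was still high in iPSC. The MEF of Mbd3f/- stood at 0.187 FPKM, days 1 to 8 of that system at 23.9, 78.4, 35.1, 76.9, 167, 214, 325 and 313, the iPSC at 294 and the ES cells at 93. The MEF of Gatad2a-/- stood at 0.135, days 1 to 8 at 4.1, 7.86, 10.3, 23.6, 88.7, 234, 295 and 66.5 and the iPSC at 418. The iPSC level was 90.4% of the highest day in Mbd3f/- and 141% in Gatad2a-/-. WT-1 held 0.104 FPKM (MEF), 0.0845, 0.215, 0.662 and 3.76 (days 2, 4, 6 and 8), 47.8 (iPSC) and 186 (ES cells), and WT-2 was listed at 0 in MEF and on all 4 days, with 101 in iPSC. Its 3-fragment level in WT-2 was 0.975 to 1.99 FPKM, so lower levels there could not be read.

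Plek2 came first and Fam25c last in both depleted systems. Weighted by FPKM, the mean day of expression was 3.11 in Mbd3f/- and 2.96 in Gatad2a-/- for Plek2, 4.44 and 4.16 for Fetub, 4.24 and 4.47 for Cyp4f39, 4.45 and 4.73 for Aqp3, and 4.47 and 4.75 for Krtdap. For Lgals7 it was 4.53 in Mbd3f/- and 4.83 in Gatad2a-/-, for Ly6g6c 5.61 in both, and for Fam25c 6.07 and 6.29. Between them, 5 genes followed within less than a day of each other, and Ly6g6c came after those 5. Over the 8 genes the mean days of the 2 systems had a Pearson and a Spearman correlation of 0.976, given as a description of genes chosen for this pattern. Mbd3f/- had the higher peak for 6 genes, from Cyp4f39 (115 in Mbd3f/-, 110 in Gatad2a-/-) to Lgals7 (206 and 71.6), and Gatad2a-/- for Fetub and Ly6g6c.

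Pairs of genes followed each other to different degrees over the 8 days, given as Pearson correlations of log2(FPKM + 1) that share libraries and depth. Krtdap and Cyp4f39 had 0.899 in Mbd3f/- and 0.904 in Gatad2a-/-, and Krtdap and Lgals7 had 0.874 and 0.919. Cyp4f39 and Fetub had 0.971 in Mbd3f/- and 0.813 in Gatad2a-/-. Plek2 and Fam25c, the first and the last, had -0.864 in Mbd3f/- and -0.857 in Gatad2a-/-.

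**Figure D2:**
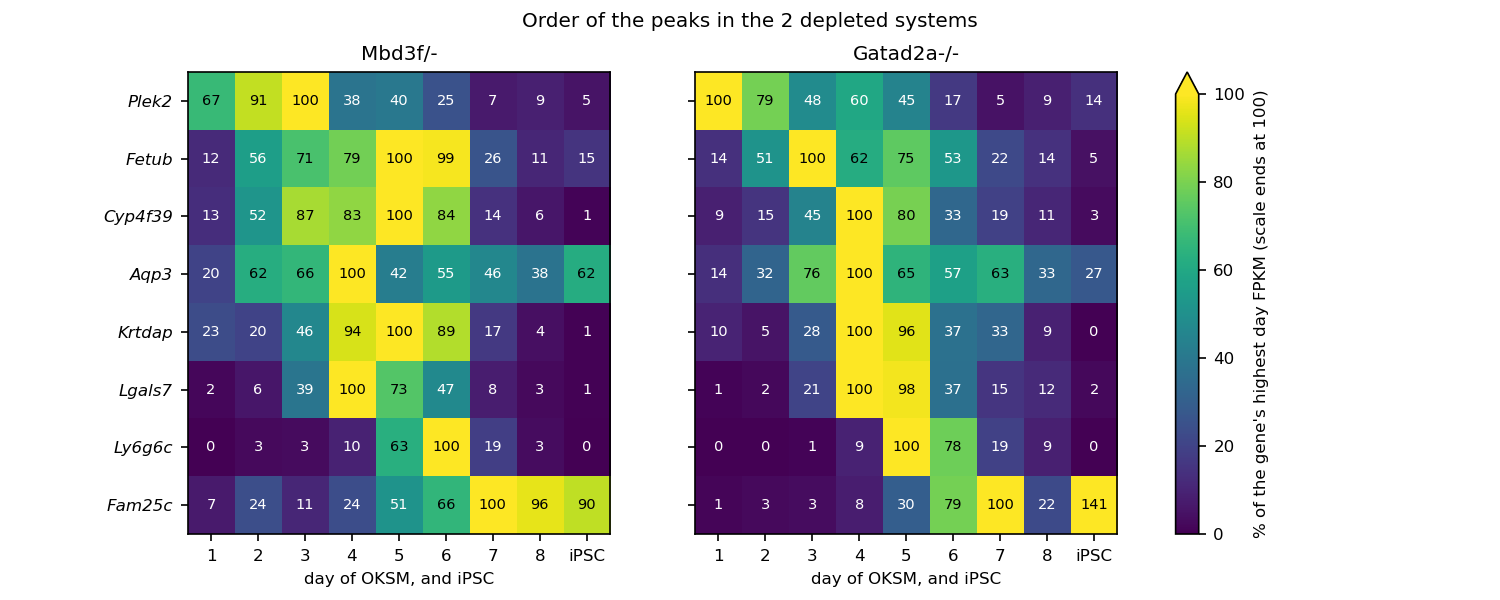
FPKM of each gene as a percent of its own highest day, on days 1 to 8 and in iPSC, for Mbd3f/- and Gatad2a-/- (1 library per column, colour scale ending at 100%). The bright cells move from Plek2 on the first days through a middle group around days 4 and 5 to Ly6g6c and Fam25c, and in iPSC only Aqp3 (61.8% and 27.5%) and Fam25c (90.4% and 141%) keep over 15% in both systems.

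The WT courses ask whether the 8 genes moved without depletion. All 8 genes passed the filter on low values, 5 of them on WT libraries alone, and Krtdap, Cyp4f39 and Ly6g6c only with the depleted libraries counted in. For Krtdap, Cyp4f39 and Ly6g6c the WT fits are therefore a description only. The spread used by the fit is pooled over WT and depleted systems. The mean of days 2 to 8 against MEF in the 2 WT systems gave no call for any of the 8 genes (limma, adjusted p below 0.05), with log2 changes of 0.08 (Cyp4f39) to 0.98 ± 0.69 (SE) for Fetub, whose adjusted p was 0.823. Over all 20305 genes 0.00492% were called higher and 0.0% lower, 1 gene in all, with 1669 at an unadjusted p under 0.05. A miss of the threshold with 2 systems does not show that nothing changed: WT-1 was highest on day 8 among its days for all 8 genes, at 26.5 FPKM for Fetub, 4.79 for Ly6g6c, 4.58 for Aqp3 and 3.76 for Fam25c. WT-2 stayed at or under 1.07 FPKM on its 4 days for all 8 genes, and 21 of its 48 values of the 8 genes were listed at 0, against 5 of 56 in WT-1. WT-2 also carried high macrophage markers (7 genes summed to 4110 to 8320 FPKM on its days, against 9.98 to 20.9 in WT-1, 11.6 to 580 in Mbd3f/- and 12.1 to 292 in Gatad2a-/-), and their part in these values was not tested.

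From the WT days to WT iPSC, 3 of the 8 genes rose and 0 fell. Aqp3 rose by 4.52 ± 0.45 (log2, SE, adjusted p = 4.17e-06), Fam25c by 5.72 ± 0.65 (adjusted p = 1.37e-05) and Plek2 by 1.57 ± 0.30 (adjusted p = 0.000809), in both WT systems each. Over all genes 25.0% were called higher and 22.5% lower in this comparison. Fetub (1.59 ± 0.69, adjusted p = 0.0767) and Cyp4f39 (0.98 ± 0.42, adjusted p = 0.0687) missed the threshold, as did Lgals7 (0.65), Ly6g6c (0.21) and Krtdap (0.18). Fetub and Cyp4f39 were called with a pseudocount of 0.1 (2.46 and 3.09) and with quantile normalization (1.70 and 1.21). Cyp4f39 passed the filter only with the depleted libraries, so its calls are a description. Against WT MEF, WT iPSC were higher in Aqp3 (5.12 ± 0.57, adjusted p = 1.9e-05), Fam25c (6.07 ± 0.82, adjusted p = 8.75e-05), Plek2 (1.75 ± 0.38, adjusted p = 0.00241) and Fetub (2.57 ± 0.88, adjusted p = 0.0304), against 22.9% of all genes called higher and 20.5% lower. The Plek2 calls are lost when WT-2 is left out (1.505 against the days and 1.74 against MEF), that against MEF also without WT-1 (1.76), and the Fetub call is lost without WT-2 (1.70), each with 1 WT system left whose spread is taken from the others. The Plek2 call against MEF is also lost without the system block, and the Fetub call with no filter, without the block and with the compared libraries only.

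Relative to the mean of their own days, WT iPSC and depleted iPSC moved in opposite directions for 3 genes. The log2 change from the mean of days 2, 4, 6 and 8 to iPSC was -4.08 in Mbd3f/- and -2.59 in Gatad2a-/- for Lgals7, against 0.22 in WT-1 and 1.09 in WT-2. For Cyp4f39 it was -4.42 in Mbd3f/- and -2.96 in Gatad2a-/-, against 0.67 in WT-1 and 1.30 in WT-2. For Plek2 it was -2.15 in Mbd3f/- and -0.92 in Gatad2a-/-, against 1.51 in WT-1 and 1.64 in WT-2. The depleted values are those the genes were chosen on, so these differences were not tested.

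ES cells against iPSC, in Mbd3f/- and WT-1, gave no call for the 8 genes, with 0.0% of 20410 genes called and 356 at an unadjusted p under 0.05. The log2 differences, ES minus iPSC, ran from -1.06 ± 0.53 for Lgals7 to 0.22 for Krtdap. Fam25c was lower in ES than in iPSC in Mbd3f/- (93 against 294 FPKM) and higher in WT-1 (186 against 47.8 FPKM).

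The Myc libraries ask how the factor Myc bears on these genes, with 1 library per condition and so no test. A difference is counted when log2(FPKM + 1) differs by over 1. The labels could not be checked on the Myc row of the table, which stood at 3.16 FPKM in the library labelled OSK with cMyc, 0.51 in that labelled cMyc, 24.8 in that labelled OSK and 30.5 and 26.5 in si-Scramble MEF. These levels go against the label, and on the OKSM days of Mbd3f/- the row reached as low as 0.0919 FPKM, and whether the row counts the transgene was not tested. In the siRNA arm the Myc row had 11 FPKM in the library labelled siMyc on day 7, against 16.2 in si-Scramble on day 7, and the Mycn row 0.927 against 1.47. The Mycl row goes against the label, with 3.31 FPKM in siMyc against 1.03 in si-Scramble. Directions drawn from the libraries labelled cMyc or siMyc rest on the labels alone.

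With OSK present, the library labelled OSK with cMyc was higher than the library labelled OSK for 3 genes and lower for 3. Krtdap had 62.1 FPKM with cMyc against 17.5 without, Cyp4f39 114 against 30.5 and Ly6g6c 33.3 against 6.62, log2 differences of 1.77, 1.87 and 2.17. Lgals7 had 1.44 with cMyc against 4.88 without, Fetub 174 against 353 and Fam25c 11.7 against 41.5, log2 differences of -1.27, -1.02 and -1.75. Aqp3 (63 against 52.3) and Plek2 (25.6 against 14) differed by less. The Pou5f1 row (Oct4, one of the OSK factors) had 2.69 FPKM with cMyc against 36.1 without, and its part in these differences was not tested. Over all 16436 genes 11.1% were higher and 15.7% lower by this measure. Lgals7 and Fetub dropped under the threshold with quantile normalization (-0.99 and -0.94), which leaves Fam25c as the 1 lower gene.

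The library labelled cMyc, without OSK, was low in most of the genes. It had 0.331 FPKM of Krtdap, 0.589 of Aqp3, 0.799 of Fetub, 2.08 of Lgals7 and 5.64 of Plek2, and Cyp4f39, Ly6g6c and Fam25c were listed at 0. The library labelled OSK with cMyc was higher than it for 7 genes and lower for 0, against 8.82% and 3.98% of all genes, with Lgals7 the exception (1.44 against 2.08 FPKM). Both comparisons share the library labelled OSK with cMyc. The genes were chosen for a rise in reprogrammed cells of this kind, so the count against cMyc alone is a description.

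On day 7 of the OSK line, si-Scramble cells were higher than si-Scramble MEF for all 8 genes and lower for 0, against 7.22% and 5.43% of all genes. These are Mbd3f/- cells and the genes were chosen for a rise in such cells, so this count is no independent support. Their FPKM were 175 for Aqp3, 116 for Fetub, 76.8 for Lgals7, 55.4 for Ly6g6c, 44.2 for Cyp4f39, 25 for Fam25c, 14.2 for Krtdap and 4.58 for Plek2. In MEF, Cyp4f39, Ly6g6c and Fam25c were listed at 0 in both libraries, Aqp3 had 0.756 and 0.523, Fetub 0.208 and 0.341, Krtdap 1.02 and 1.78, Lgals7 8.82 and 3.29, and Plek2 0.879 and 1.12. The library labelled siMyc on day 7, against si-Scramble on day 7, was lower for 3 genes and higher for 0, against 4.17% and 3.12% of all genes. Lgals7 had 5.32 FPKM in siMyc against 76.8 in si-Scramble (log2 difference -3.62), Fetub 35.2 against 116 (-1.69) and Ly6g6c 14.6 against 55.4 (-1.85). Aqp3 (264 in siMyc, 175 in si-Scramble), Fam25c (47.1 and 25), Krtdap (9.03 and 14.2), Cyp4f39 (31.1 and 44.2) and Plek2 (4.58 in both) differed by less.

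On day 3 the library labelled siMyc had 75.2 FPKM of Fetub, 55.7 of Aqp3, 17.4 of Cyp4f39, 9.02 of Fam25c, 8.17 of Krtdap, 7.19 of Lgals7, 3.52 of Ly6g6c and 3.19 of Plek2. It was higher than si-Scramble MEF for 7 genes and lower for 0 (4.57% and 8.35% of all genes), with Plek2 near the threshold (log2 difference 1.07, and 0.98 without the first MEF library). The Myc inhibitor library of the same day had 13.4 FPKM of Fetub, 3.72 of Aqp3, 1.19 of Cyp4f39, 0.646 of Plek2, 0.392 of Ly6g6c and 0.108 of Lgals7, and Krtdap and Fam25c were listed at 0. It was higher than si-Scramble MEF for 3 genes (Aqp3, Cyp4f39 and Fetub) and lower for 2 (Krtdap and Lgals7), against 10.1% and 10.3% of all genes. For each of the 8 genes the inhibitor library lay below the library labelled siMyc of day 3. The Pou5f1 row differed as well, with 0.817 FPKM in the inhibitor library against 6.74 in that labelled siMyc, and its part was not tested. No si-Scramble library of day 3 is among the samples, and these comparisons share the same 2 MEF libraries. As the genes were chosen for a rise in Mbd3f/- cells, the counts upward from MEF are a description. Among basal keratinocyte markers in the Myc libraries, Krt14 had 152 FPKM in siMyc and 161 in si-Scramble on day 7, against 5.13 and 5.79 in si-Scramble MEF, and 57.5 in the library labelled OSK with cMyc against 4.95 in that labelled OSK. Trp63 stayed at or under 0.183 FPKM and Krt5 at or under 1.61 in all 9, and their part in these differences was not tested.

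**Figure D3:**
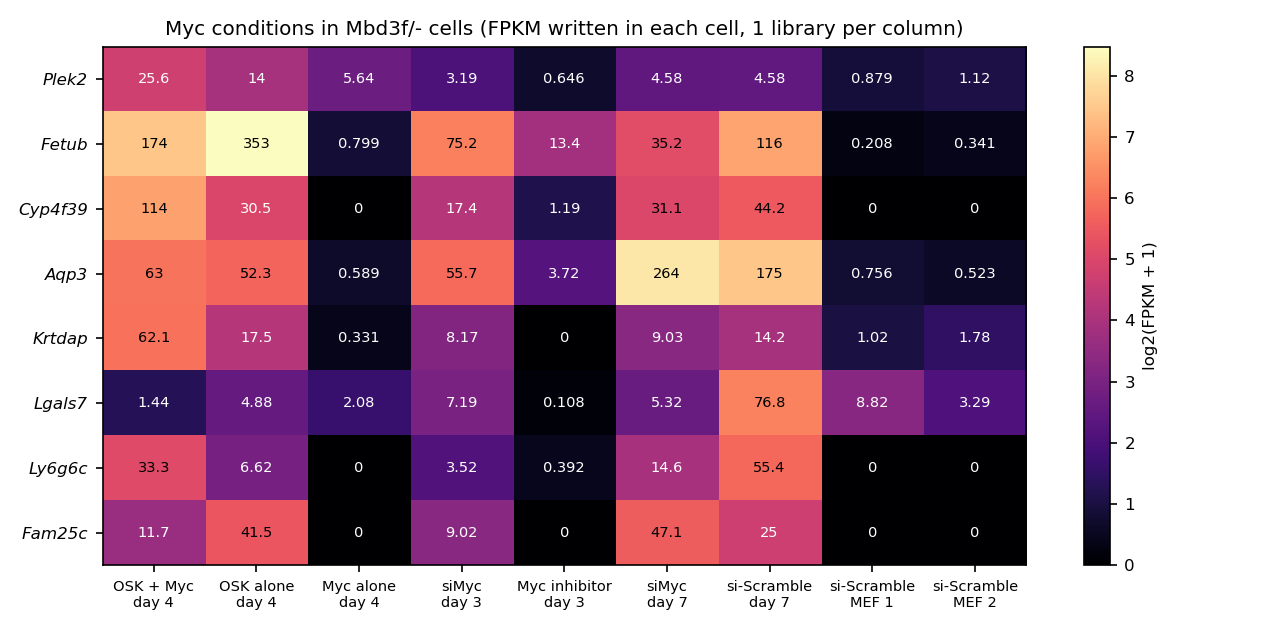
FPKM of the 8 genes (written in each cell, colour by log2(FPKM + 1)) in the 9 Myc libraries, 1 library per column. The libraries labelled cMyc (without OSK) and Myc inhibitor are dark for most genes, with summed levels of 9.44 and 19.5 FPKM, against 179 to 521 FPKM in the other libraries with OSK induced.

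The label of the group was checked against keratinocyte markers, whose lists, like the 8 genes, were set with earlier results of these data known. Some classical markers of stratified epidermis stayed near 0 in the same libraries, and others did not. Trp63, the master factor of basal keratinocytes, reached at most 0.0394 FPKM on any day in Mbd3f/- and 0.492 in Gatad2a-/-, and Krt5 at most 0.541 and 1.02. Krt1 reached 1.1 in Mbd3f/- and 0.715 in Gatad2a-/-, Krt10 0.989 and 1.65, loricrin (Lor) 0.125 and 0.588, and filaggrin (Flg) 0.287 and 1.82. Others lay higher. Krt14 had 49.9 FPKM on day 2 in Mbd3f/- and 12.7 in Gatad2a-/-, against 5.14 and 9.67 in MEF. The suprabasal marker Dmkn reached 9.77 FPKM in Mbd3f/- and 40 in Gatad2a-/-, and the basal markers Itgb4 and Itga6 were called higher (below). Summed over the basal list, the highest day had 381 FPKM in Mbd3f/- and 603 in Gatad2a-/-, against 57.4 and 166 in MEF. For the suprabasal list the sums were 137 and 83.2, against 25.8 and 47.7 in MEF. The lowest day of the suprabasal list lay below MEF, at 16.5 FPKM in Mbd3f/- and 29.2 in Gatad2a-/-. Its highest day also lay above MEF in WT-1 (68.5 against 51.5) and in WT-2 (50.7 against 33.3). For the basal list the highest WT days were 116 in WT-1 and 44.8 in WT-2, against 94.7 and 41.1 in MEF. With markers on both sides, no keratinocyte name is given to the cells. Trp63 stands in both the basal and the factor list.

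Comparisons of list genes between depleted days and depleted MEF, all with limma over 20305 genes, were added after the data had been seen, and 20.5% of all genes were called higher and 17.5% lower. Of 16 basal keratinocyte genes, 13 could be tested: 5 rose, 2 fell and 6 were not called, with a list median of 0.46 against 0.19 for all genes. Itgb4 (integrin beta 4 of hemidesmosomes) rose by 3.24 ± 0.78 (adjusted p = 0.00538) and Perp (a desmosome-associated protein) by 3.45 ± 0.77 (adjusted p = 0.0036), with Pkp1, Dst and Itga6 also higher. Krt5 fell by 1.77 ± 0.22 (adjusted p = 5.72e-05) and Krt15 fell by 1.88 ± 0.59 (adjusted p = 0.0225). The 5 calls upward become 0 when Mbd3f/- is left out (2.75 for Perp), and Itgb4 also loses its call without Gatad2a-/- (3.18).

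Of 33 suprabasal and cornified envelope genes only 13 could be tested, and 4 rose (Dmkn, Evpl, Klk7 and Tgm3) while 3 fell (Asprv1, Sprr1a and Sprr3), with a list median of 0.12. Over all genes 20.5% were called higher and 17.5% lower, with a median of 0.19. Evpl, which encodes envoplakin, rose by 1.38 ± 0.26 (adjusted p = 0.00122), and Tgm3, an epidermal transglutaminase, by 1.49 ± 0.28 (adjusted p = 0.00125). Of 16 lipid barrier genes 10 were tested, 1 rose and 5 fell. The 1 that rose was Alox12b, the 12R-lipoxygenase that acts on acylceramides downstream of Cyp4f39 (1.71 ± 0.37, adjusted p = 0.00304), with a highest day of 4.38 FPKM in Mbd3f/- and 11.8 in Gatad2a-/-. Among those that fell were Elovl1, Slc27a4, Smpd1 and Ugcg, which have broad roles in lipid metabolism. Calls downward become 0 among the suprabasal genes when Gatad2a-/- is left out, and 3 among the lipid barrier genes when either depleted system is.

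Epidermal transcription factors were the list with most calls upward among the epidermal lists: 10 of 16 tested genes rose and 2 fell (Gata3 and Cebpa), with a list median of 1.23. Of the same 16, 8 were called higher and 1 lower in WT iPSC against WT MEF (22.9% and 20.5% of all genes). From depleted days to depleted iPSC 1 rose and 2 fell, so most were not called as transient. Tfap2c, an AP-2 factor of surface ectoderm, trophoblast and germ cells, rose by 4.11 ± 0.40 (adjusted p = 9.56e-06), with a highest day of 42.1 FPKM in Mbd3f/- and 105 in Gatad2a-/-, both day 7. Grhl3, a grainyhead-like factor of barrier formation, rose by 2.90 ± 0.29 (adjusted p = 1.05e-05) to 22.7 FPKM on day 7 in Mbd3f/- and 15.7 on day 8 in Gatad2a-/-. Zfp750, a factor of terminal differentiation, rose by 2.36 ± 0.44 (adjusted p = 0.00105), and Elf3, Grhl1, Grhl2, Tfap2a, Barx2, Ovol1 and Ovol2 rose as well. The number of calls upward is 8 when either depleted system is left out. The difference in this change between depleted and WT systems was called higher for 4 of the 16 (Tfap2c, Grhl1, Grhl2 and Grhl3) and lower for Gata3, against 5.53% of all genes called higher and 9.18% lower; it was 3.97 ± 0.56 for Tfap2c (adjusted p = 0.000685). Of these 4, Grhl1 and Grhl2 lose the call when either WT system is left out (1.75 and 1.84 without WT-1, 1.49 and 1.65 without WT-2). The Gata3 call is lost without WT-1 (-1.25), without WT-2 (-1.57) and without Mbd3f/- (-1.32).

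Simple epithelium genes, which mark single-layered epithelia, had 15 tested members. Of these 11 rose and 1 fell (Krt7), among them Epcam (3.14 ± 0.93, adjusted p = 0.0176), Cdh1, which encodes E-cadherin (3.59 ± 0.93, adjusted p = 0.00819), and Krt8 (2.33 ± 0.62, adjusted p = 0.00986). The number of calls upward is 4 when either depleted system is left out; Epcam (3.50 without Mbd3f/-, 2.77 without Gatad2a-/-) and Cdh1 (3.99 and 3.20) lose theirs both times and Krt8 without Mbd3f/- (0.81). Krt8 had its highest day on day 5 in both systems, at 201 FPKM in Mbd3f/- and 97.6 in Gatad2a-/-, within the window of the 8 genes. In WT iPSC against WT MEF, 12 of the 15 simple epithelium genes were called higher and 0 lower (22.9% and 20.5% of all genes). From depleted MEF to depleted days the 12 fibroblast genes all fell, the 10 pluripotency genes all rose, and 6 of 7 macrophage genes fell (0 rose). Their part in the courses of the 8 genes was not tested. The 6 macrophage calls become 0 without Mbd3f/- and 2 without Gatad2a-/-.

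From depleted days to depleted iPSC 5.86% of all genes were called higher and 3.71% lower. Of 13 basal genes tested 1 fell (Pkp1), of 13 suprabasal genes 3 (Dmkn, Evpl and Sbsn) and of 16 factors 2 (Ovol1 and Barx2). Of 15 simple epithelium genes 2 fell (Krt8 and Rab25), and of 10 lipid barrier genes 2. Most tested genes of each of these lists were not called. Klf5, a factor shared by epidermis and pluripotent cells, and Ocln rose. Dmkn fell by 2.18 ± 0.51 (adjusted p = 0.0155) and Krt8 fell by 2.93 ± 0.62 (adjusted p = 0.00899). The Klf5 call is lost when either depleted system is left out (2.89 without Mbd3f/-, 3.39 without Gatad2a-/-), as is that of Rab25 (-1.16 and -1.34). Without Gatad2a-/- alone the calls of Sbsn (-1.39) and Ocln (0.72) are lost, and without Mbd3f/- alone that of Barx2 (-0.53).

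**Figure D4:**
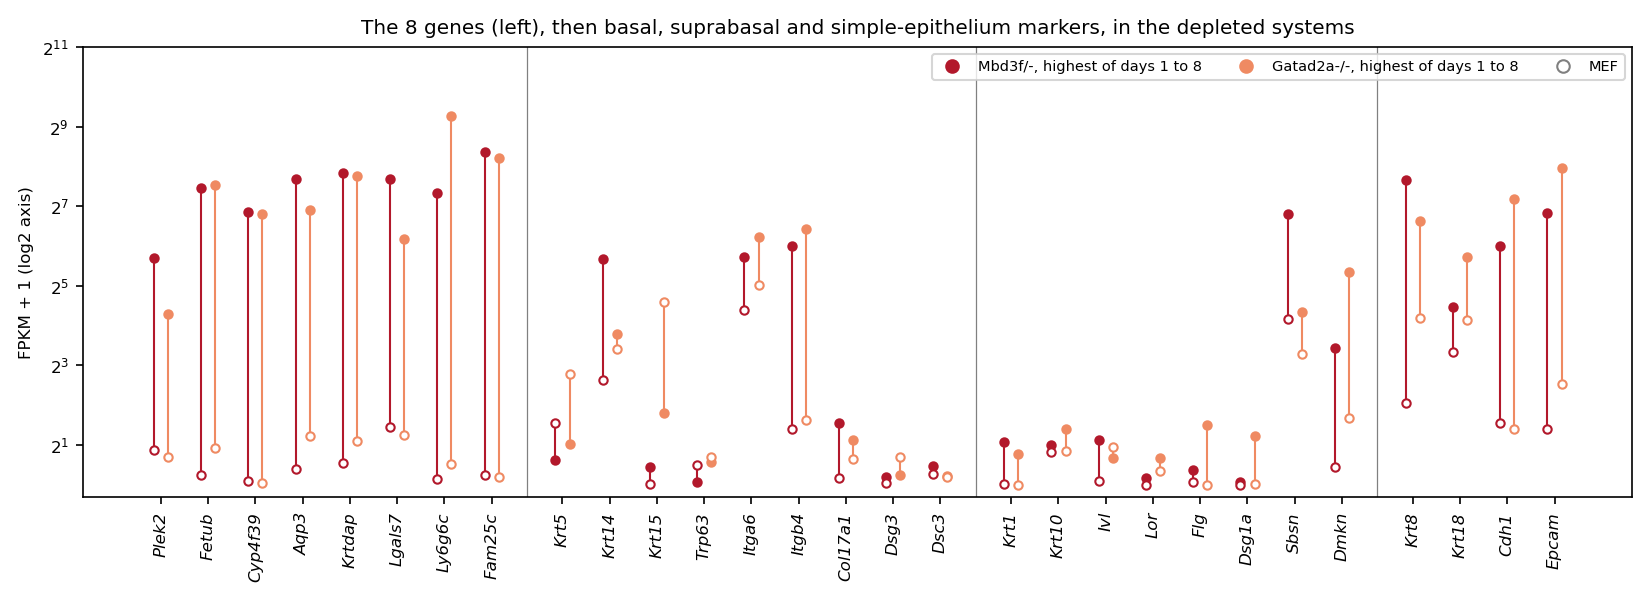
FPKM + 1 (log2 axis) in MEF (open symbols) and on the highest of days 1 to 8 (filled symbols) in Mbd3f/- and Gatad2a-/-, 1 library per symbol, for the 8 genes at the left and then basal, suprabasal and simple-epithelium markers. On their highest days the 8 genes reach 18.5 FPKM or more in both systems, Trp63, Krt5, Krt1, Krt10, Lor and Flg at most 1.82, and Krt8, Cdh1 and Epcam 62.8 to 249. Not all basal and suprabasal markers are that low: Krt14 lies higher, as does Dmkn (9.77 FPKM in Mbd3f/- and 40 in Gatad2a-/-).

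Relatives of the 8 genes were compared in the same way, depleted days against depleted MEF. Over all genes 20.5% were called higher and 17.5% lower there, and these small families were not tested as sets. Of the 4 other aquaporins tested 0 rose and 1 fell (Aqp1), of 5 other galectins 0 rose and 3 fell (Lgals1, Lgals8 and Lgals9), and of 5 other Cyp4f enzymes 0 rose and 0 fell. Plek, the paralogue of Plek2 in blood cells, fell by 2.91 ± 0.65 (adjusted p = 0.00345). Of 11 tested members of the Ly6 and uPAR family 3 rose, Ly6g6d, Ly6g6e and Ly6g6f, all from the cluster around Ly6g6c, and Lynx1 fell. Ly6g6d (2.16 ± 0.42, adjusted p = 0.00149) was highest on day 6 in Mbd3f/- (21.6 FPKM) and on day 5 in Gatad2a-/- (15.2 FPKM), the same days as Ly6g6c. Ly6g6f was highest on the same days (11.6 and 3.53 FPKM), whereas Ly6g6e was highest on day 8 (64 and 24.6 FPKM). Without Mbd3f/- the calls of Plek (-2.21), Ly6g6d (1.79) and Lgals9 (-1.60) are lost, and those of Ly6g6e (2.34 without Mbd3f/-, 2.61 without Gatad2a-/-) and Aqp1 (-1.97 and -2.87) with either system left out. Aqp5, singled out after its values were seen, had 195 FPKM on day 1 in Mbd3f/- and at most 2.5 FPKM in Gatad2a-/-.

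The nearest protein-coding genes on both sides, chosen after the data had been seen, gave 6 that rose and 0 that fell among the 11 of 16 that could be tested, against 20.5% called higher over all genes. Dmkn, which encodes the keratinocyte protein dermokine and lies 6833 bases from Krtdap, rose by 1.49 ± 0.51 (adjusted p = 0.0356), with its highest day on day 3 in Mbd3f/- (9.77 FPKM) and day 4 in Gatad2a-/- (40 FPKM). Ahsg, which encodes fetuin-A and lies 18885 bases from Fetub, rose by 1.99 ± 0.39 (adjusted p = 0.00139), with 14.7 FPKM on day 6 in Mbd3f/- and 14.8 on day 3 in Gatad2a-/-, and fell by 1.36 ± 0.39 in depleted iPSC (adjusted p = 0.0417). Ly6g6d lies 1393 bases from Ly6g6c. The other 3 that rose, Nol6 next to Aqp3, Eif2s1 next to Plek2 and Glud1 next to Fam25c, are broadly expressed genes. Without Mbd3f/- the calls of Dmkn (1.11), Ly6g6d (1.79), Nol6 (1.19) and Glud1 (0.74) are lost, and without Gatad2a-/- that of Ahsg (1.47), whose fall in iPSC loses its call both ways (-1.86 without Mbd3f/-, -0.85 without Gatad2a-/-).

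Among the genes most like the mean of the 8 over the 34 course libraries, by Pearson correlation of log2(FPKM + 1) centred within each system, stood Cops7a (0.948), Nova2 (0.921), Mapk13 (0.919), Elovl7 (0.91), Tsen34 (0.901), Atp2a3 (0.887) and Tomm34 (0.885), out of 12513 candidates. Mapk13, which encodes the p38 delta kinase, had 3.28 FPKM in MEF, 77 on its highest day (4) and 4.2 in iPSC in Mbd3f/-, and 2.36, 37.2 (day 5) and 6.91 in Gatad2a-/-. Atp2a3, a calcium pump of the endoplasmic reticulum, had 3.18 in MEF, 169 on its highest day (5) and 19.7 in iPSC in Mbd3f/-, and 1.2, 138 (day 5) and 8.04 in Gatad2a-/-. Single genes most like one of the 8 were Gcnt3 for Ly6g6c (0.919), Slc25a48 for Lgals7 (0.94), Zdhhc23 for Cyp4f39 (0.92), Rtca for Plek2 (0.956), Gpn3 for Aqp3 (0.944) and Znrf2 for Fam25c (0.951). Krtdap was most like Tsen34 (0.9) and Fetub most like Cops7a (0.922). The points share libraries, depth and system.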

How the data were processed

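Poly(A) RNA of 43 mouse libraries was sequenced and the authors deposited FPKM per gene in 5 tables, 1 per system and 1 of Myc conditions. Tools listed in the submitters' processing notes are CASAVA 1.8.2, Cufflinks 2.2.1 and TopHat2 2.0.10, with the build mm10. Not given in the sources used here: which annotation was counted and whether by strand. Per the labels the kit was one that does not mark strand. Of the value columns 0 lacked a sample. Rows sharing a gene identifier (41 in each file) were summed.

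FPKM are not counts, so limma 3.58.1 in R 4.3.3 (trend and robust) was run on log2(FPKM + 1), where a log2 change understates that of a low gene. Kept were genes reaching FPKM 1 in 2 or more libraries. Class means per stage with system as a block were fitted over 24 shared-stage libraries (26 with ES cells), with Benjamini-Hochberg adjusted p and a threshold of 0.05. The procedure was tested on simulated data. With 2 systems per class and system as a block, p-values measure how stage changes differ between the systems of a class. This spread is pooled over the WT and depleted classes and moderated over genes. Depth was estimated from steps of low FPKM, with 3 fragments as the floor, for counting error only.

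The 8 genes and all gene lists were chosen with earlier results of these data known. Named list genes are the 4 highest in depleted days and those called; comparisons of depleted libraries for list genes, the TATAAA motif and the neighbours were added after the data were seen. Alternatives were the pseudocount (0.1), no filter, quantile normalization, no system block, only the compared libraries, and leaving out each system or MEF library. Gene positions are from the GRCm38 annotation, sequences from RefSeq. Some list genes and like genes are not reported here.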

Additional observations from a re-analysis of the deposited data

Results flagged for a closer look

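From the mean of days 2, 4, 6 and 8 to iPSC, depleted and WT systems moved in opposite directions for 3 of the 8 genes. This held in every system of each class. The log2 change from the mean of days 2 to 8 to iPSC, depleted minus WT, was -3.99 for Lgals7, the galectin of stratified epithelia. It was -4.67 for Cyp4f39, the acylceramide hydroxylase, and -3.1 for Plek2. In both depleted systems iPSC lay below the mean of these days, and in both WT systems above it. This does not hold for each single day. Plek2 in Gatad2a-/- iPSC (2.55 FPKM) lay above days 7 and 8 (0.908 and 1.62). Lgals7 in WT-1 iPSC (1.46 FPKM) lay below days 6 and 8 (1.93 and 2.55). Of the WT rises only that of Plek2 was called. The genes were chosen on the depleted values, and the difference was not tested.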

How the results depend on the processing

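Calls of Aqp3 and Fam25c in WT iPSC, against WT days and WT MEF, held under every alternative run. The Plek2 call against MEF was lost without the system block, and the Fetub call with no filter, without the block and with the compared libraries only. Cyp4f39 and Fetub gained a call against the days with pseudocount 0.1 and quantile normalization, where Cyp4f39 passed the filter only with the depleted libraries.

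Genes called for WT days against MEF numbered 1, 2 with pseudocount 0.1, 12 with quantile normalization and 78 to 113 with a WT system left out. For WT iPSC against days 9650 were called, 5084 without the block and 4593 to 7742 with a system left out. For WT iPSC against MEF 8820 were called, 3900 without the block and 4010 to 6261 with a system left out. For ES against iPSC 0 were called, 9 with no filter, 1 with the compared libraries only and 43 to 682 with a system left out. For depleted days against MEF 7723 were called and 3194 without the block. For depleted iPSC against days 1942 were called, 697 without the block, 1207 with the compared libraries only and 1278 to 3963 with a system left out. For depleted minus WT 2987 were called, 725 without the block and 926 to 4705 with a system left out. Lower genes of OSK with cMyc against OSK numbered 3, and 1 with quantile normalization. The causes were not tested.

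Signs of uncalled changes turned. ES minus iPSC became -0.2087 (pseudocount 0.1) and -0.1301 (no block) for Ly6g6c, 0.26 (no block) and 0.1257 (compared libraries) for Plek2 and 0.1425 (compared libraries) for Fam25c. With WT-1 or Mbd3f/- left out it ran from -0.0801 to 0.1609 for Ly6g6c, -0.4124 to 0.1981 for Plek2, -2.443 to 1.2 for Fam25c, -1.3273 to 0.3012 for Fetub and -0.5476 to 0.9797 for Krtdap. WT iPSC minus days, with a WT system left out, ran from -0.2832 to 0.6491 for Krtdap, -0.0243 to 3.1998 for Fetub and -0.3224 to 0.7352 for Ly6g6c. Sprr3, called lower on depleted days, ran from -3.5165 to 0.04 with a depleted system left out. With quantile normalization the highest day moved to 5 for Krtdap in Gatad2a-/- and to 6 for Fetub in Mbd3f/-. Stages were paired within systems by the system block; the replicate numbers pair nothing further. Depth limits WT-2 most, where levels under 0.0911 to 1.99 FPKM, by gene, rest on fewer than 3 fragments.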
